A study of Mus musculus with 6 samples.

Results

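The genes described here are 10 genes of mineralisation and of the osteoblast and osteocyte matrix, taken by gene symbol from a table of 26969 genes: Spp1, Ibsp, Dmp1, Bglap, Bglap2, Mgp, Alpl, Enpp1, Phex and Sp7. All 10 symbols were found. Poly(A)-selected RNA of mouse chondrocytes, the matrix-making cells of cartilage, was sequenced in 6 libraries, and the study set chondrocytes that had received transplanted mitochondria against chondrocytes that had not. The series title speaks of mitochondria of osteocytes. The libraries form a group of 3 described as mAC_Mito and a group of 3 described as mAC, both of genotype wt. Both the sample titles and the treatment entries contradict these descriptions, since in both fields mAC_Mito is vehicle and mAC is the group with mitochondria. Every difference is therefore mAC_Mito minus mAC and none is given as an effect of mitochondria. Strain, age, tissue of origin, dose and time are not given in the labels, and nothing there says that the replicates were separate cultures or animals. The extraction protocol mentions adipose RNA, at odds with the chondrocyte source. The p-values therefore rest on the spread among the 6 libraries alone, and that spread may be technical.

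Mineral forms in cartilage and bone when phosphate and calcium exceed what the matrix inhibitors hold back. Enpp1 makes extracellular pyrophosphate, which blocks crystal growth, and tissue-nonspecific alkaline phosphatase (Alpl) removes it and frees phosphate. Osteoblasts and osteocytes add acidic, integrin-binding proteins and osteocalcin to the matrix under the transcription factors Runx2 and Sp7, while Mgp keeps permanent cartilage and vessel walls free of mineral.

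Total counts were 60151766 to 63700612 in mAC_Mito and 59116068 to 68378213 in mAC, and 21437 to 22107 genes had a count in a library. All 14 chondrocyte markers were detected, led by Col2a1, the main cartilage collagen, at 1390.3 ± 384 FPKM in mAC_Mito and 1117 ± 101 FPKM in mAC (SD, n = 3 each). Cnmd, the cartilage protein chondromodulin, followed at 604 ± 2.75 FPKM in mAC_Mito and 645 ± 71.3 FPKM in mAC. FPKM, a level scaled for gene length and library depth, was taken as the authors deposited it, and the rule of their scaling is not known here. It was not simply the deposited count over transcript length and depth. In mAC_Mito 1, FPKM per count was 0.0196 for Bglap and 0.0277 for Bglap2, with annotated transcripts of 440 and 471 bases. Genes of the mitochondrial genome took 5.66%, 2.96% and 3.44% of the counts in mAC_Mito 1, 2 and 3, and 7.38%, 4.77% and 3.18% in mAC 1, 2 and 3. In bulk RNA, fewer cells of a type and less RNA per cell cannot be told apart.

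The 10 genes spanned the table from near its top to near its floor. Spp1 was the most abundant at a mean of 2211 FPKM over the 6 libraries and ranked 14 among all genes, and Mgp followed at 707 FPKM with rank 44. Ibsp at 8.06, Alpl at 6.20, Enpp1 at 5.56, Sp7 at 3.63 and Bglap2 at 2.37 FPKM formed a middle tier. Bglap at 0.378, Phex at 0.0632 and Dmp1 at 0.0392 FPKM were low. Neighbours in this order whose ranges over the 6 libraries overlapped were Ibsp with Alpl, Alpl with Enpp1, Sp7 with Bglap2 and Phex with Dmp1, so the order within each of these pairs was not separated by the spread between libraries. The plot of FPKM by library shows the 10 genes side by side, each on its own scale.

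**Figure D1:**
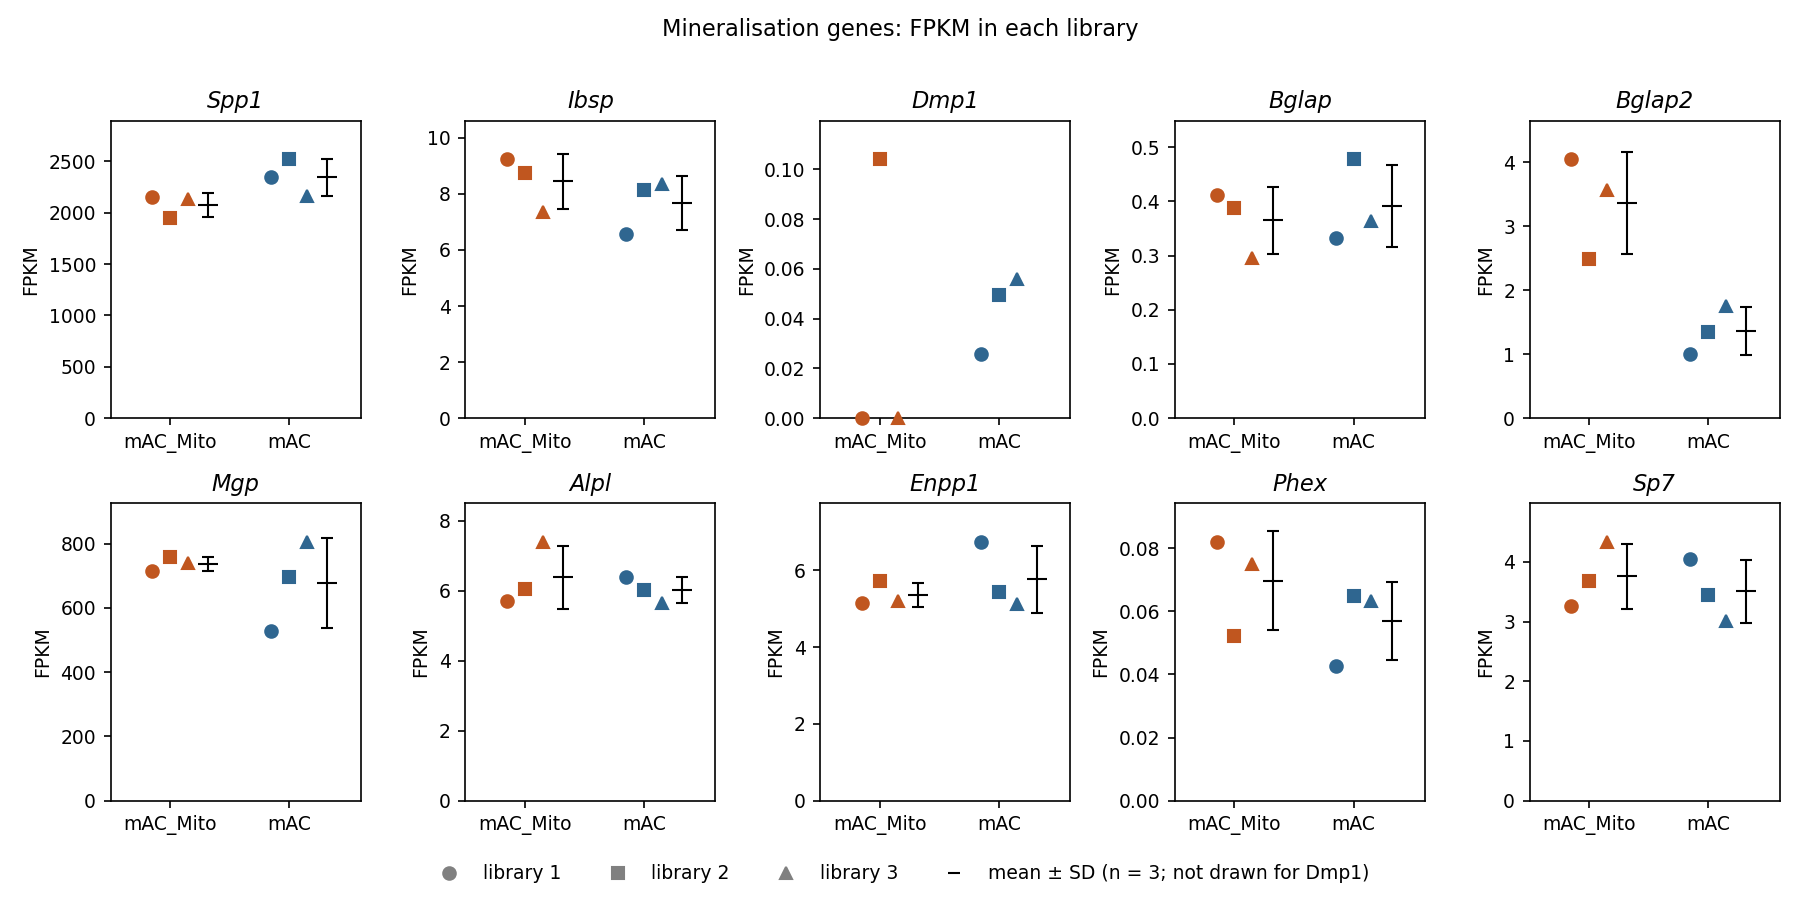
FPKM of each of the 10 genes (vertical axis, from 0, a scale per gene) in the 3 mAC_Mito libraries (left) and the 3 mAC libraries (right), with symbols for libraries 1, 2 and 3 and the group mean ± SD in black except for Dmp1. The groups overlap for 8 genes, while the Bglap2 libraries of mAC_Mito lie between 2.49 and 4.05 FPKM and those of mAC between 1.0045 and 1.75 FPKM.

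Osteocalcin, the vitamin K-dependent calcium-binding protein of bone, is encoded in the mouse by neighbouring copies. Bglap (ENSMUSG00000074483, GRCm38 chr3:88383501-88384464, minus strand) and Bglap2 (ENSMUSG00000074486, chr3:88377736-88378699, minus strand) start 5765 bases apart. Their coding sequences, from the GENCODE M21 annotation of GRCm38, are shown because they set how far reads of the copies can be told apart. They are 288 bases long and 98.6% identical, with the 4 differing bases in capitals:
Bglap: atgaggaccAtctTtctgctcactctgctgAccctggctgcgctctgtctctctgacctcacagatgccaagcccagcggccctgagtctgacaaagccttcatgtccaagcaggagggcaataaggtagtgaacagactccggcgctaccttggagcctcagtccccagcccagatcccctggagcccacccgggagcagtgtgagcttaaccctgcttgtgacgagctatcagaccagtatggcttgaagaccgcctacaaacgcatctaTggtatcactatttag
Bglap2: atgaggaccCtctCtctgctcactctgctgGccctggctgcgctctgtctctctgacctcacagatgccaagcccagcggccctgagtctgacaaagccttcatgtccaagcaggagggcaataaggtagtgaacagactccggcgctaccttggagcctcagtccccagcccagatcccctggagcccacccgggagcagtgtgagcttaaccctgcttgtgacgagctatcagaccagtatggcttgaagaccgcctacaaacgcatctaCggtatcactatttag
Counted from 1 at the first base of the start codon, with the Bglap base first and the Bglap2 base second, the differences were A10C, T14C, A31G and T273C. Of the 372 windows of 100 bases in the annotated Bglap2 transcript, 192 (51.6%) also occurred in the Bglap transcript. For Bglap, 192 of 341 windows (56.3%) also occurred in Bglap2. The transcript of a further copy, Bglap3, held 20 of the 372 Bglap2 windows (5.4%) and 0 of the 341 Bglap windows. How the authors assigned reads that match both copies is not known from the sources at hand. The values of each copy are uncertain for that reason, and the sum is given beside them.

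Bglap2 was the only one of the 10 genes with higher values in every mAC_Mito library than in any mAC library. It had 146, 80 and 117 counts in mAC_Mito 1, 2 and 3, against 34, 50 and 59 counts in mAC 1, 2 and 3. In FPKM these were 4.05, 2.49 and 3.56 in mAC_Mito and 1.0045, 1.35 and 1.75 in mAC. The lowest mAC_Mito library was mAC_Mito 2 and the highest mAC library was mAC 3, and their counting intervals overlapped (exact Poisson 95% interval 63.4 to 99.6 counts in mAC_Mito 2 and 44.9 to 76.1 counts in mAC 3).

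The mean was 3.37 ± 0.794 FPKM in mAC_Mito and 1.37 ± 0.374 FPKM in mAC (SD, n = 3 each), a fold of 2.46 with a 95% interval of 1.48 to 4.08. On the log2 scale the difference was 1.296 with a standard error of 0.33. It did not pass the test across all genes: the unadjusted p of edgeR's quasi-likelihood test was 0.00288, rank 20 among the 17645 genes tested, and the Benjamini-Hochberg adjusted p was 0.99992. Of the genes tested, 2.1% reached an unadjusted p under 0.05 with a higher value in mAC_Mito, and 3.76% had groups that did not overlap in that direction.

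Bglap, the other copy, gave no such difference. It had 21, 17 and 13 counts in mAC_Mito 1, 2 and 3, against 16, 25 and 17 counts in mAC 1, 2 and 3. The groups overlapped, with the highest count in mAC 2 and the lowest in mAC_Mito 3. On the log2 scale Bglap differed by -0.15 (standard error 0.52), and at this depth the 95% interval ran from -1.32 to 1.03.

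The sum over both copies does not depend on the split between them if each shared read was counted for 1 copy. Shared reads that were dropped or counted for both would still alter it. The summed counts were 167, 97 and 130 in mAC_Mito 1, 2 and 3, against 50, 75 and 76 counts in mAC 1, 2 and 3. Again no mAC library reached the lowest mAC_Mito library. The fold was 2.01 (95% interval 1.29 to 3.14), a log2 difference of 1.01 with a standard error of 0.29, at an unadjusted p of 0.00609 and an adjusted p of 0.99992 by edgeR's quasi-likelihood test.

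The split between the copies also varied. Bglap2 took 87.4%, 82.5% and 90.0% of the osteocalcin counts in mAC_Mito 1, 2 and 3, and 68%, 66.7% and 77.6% in mAC 1, 2 and 3. The groups did not overlap in this share, although the exact binomial 95% intervals of mAC_Mito 2 (73.4% to 89.5%) and mAC 3 (66.6% to 86.4%) did. Intervals of counts and shares cover counting error only, and they take the deposited counts as raw reads. The plot of the osteocalcin counts shows that the difference between groups lies in the reads given to Bglap2, and that the Bglap counts are few everywhere.

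**Figure D2:**
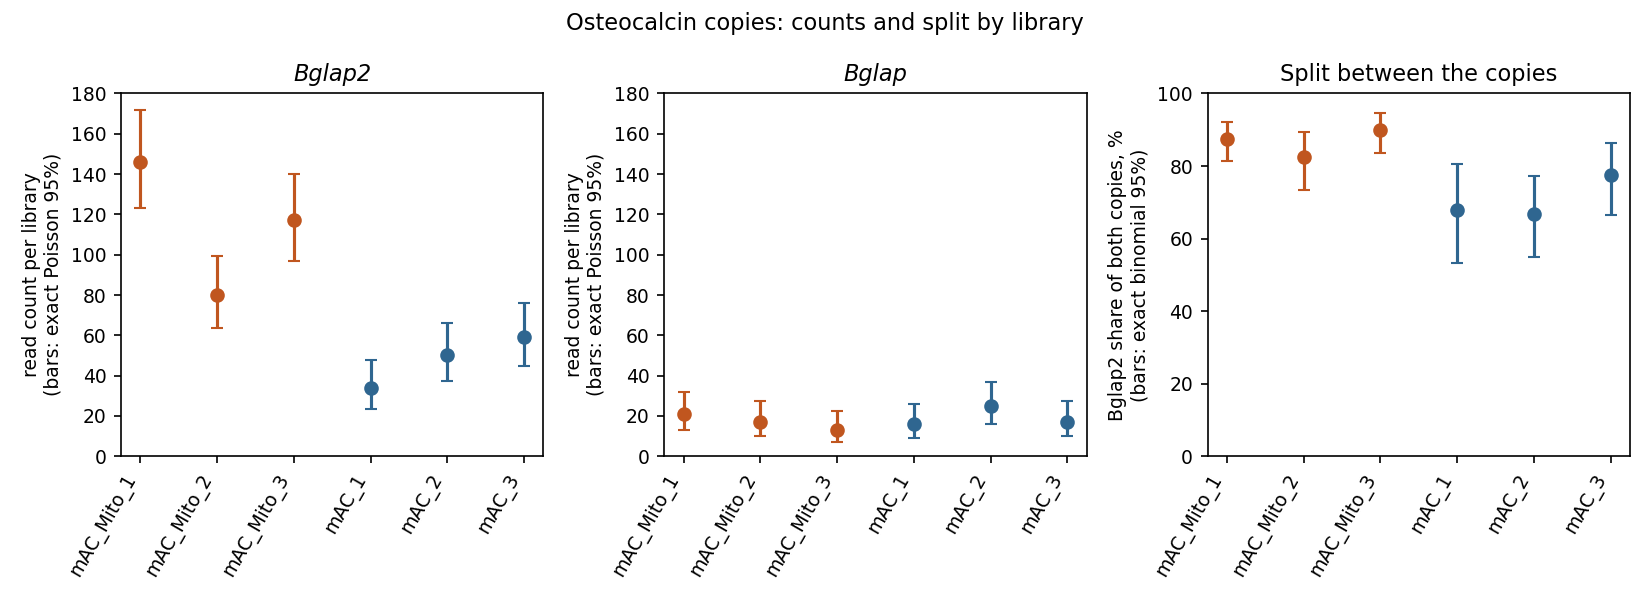
Read counts of Bglap2 (left) and Bglap (middle) and the Bglap2 share of both copies in percent (right), for mAC_Mito 1 to 3 and then mAC 1 to 3; points are libraries, and bars are exact 95% Poisson intervals of the counts and exact 95% binomial intervals of the share. Bglap2 counts run from 80 to 146 in mAC_Mito and from 34 to 59 in mAC, while Bglap counts run from 13 to 21 in mAC_Mito and from 16 to 25 in mAC.

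The acidic glycoproteins Spp1, Ibsp and Dmp1 belong to one family of integrin-binding proteins and lie within 238.4 kb of one another on chromosome 5, all on the plus strand. Spp1 codes for osteopontin, a secreted phosphoprotein that binds integrins and CD44 and slows crystal growth. Ibsp codes for bone sialoprotein, a mineral nucleator of bone and calcifying cartilage, and Dmp1 for an osteocyte protein of mineral and phosphate control. In the 250 bases before each RefSeq start (GRCm38.p6), the letters AACCACA or TGTGGTT of the RUNX motif and CCAAT or ATTGG of the CCAAT box were searched on both strands. The sequences are shown because the neighbours differ so widely in level, with matches in capitals, 5′ to 3′ on the plus strand:
Spp1, chr5:104434861-104435110: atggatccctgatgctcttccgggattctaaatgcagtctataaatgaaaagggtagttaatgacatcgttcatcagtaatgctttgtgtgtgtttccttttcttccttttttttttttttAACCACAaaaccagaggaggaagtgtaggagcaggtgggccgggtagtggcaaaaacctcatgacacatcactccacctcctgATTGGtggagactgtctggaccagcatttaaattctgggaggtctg
Ibsp, chr5:104299037-104299286: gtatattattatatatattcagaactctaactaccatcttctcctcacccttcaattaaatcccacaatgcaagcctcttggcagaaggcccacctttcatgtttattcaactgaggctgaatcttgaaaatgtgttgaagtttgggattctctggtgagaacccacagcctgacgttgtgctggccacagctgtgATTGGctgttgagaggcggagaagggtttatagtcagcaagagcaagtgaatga
Dmp1, chr5:104202367-104202616: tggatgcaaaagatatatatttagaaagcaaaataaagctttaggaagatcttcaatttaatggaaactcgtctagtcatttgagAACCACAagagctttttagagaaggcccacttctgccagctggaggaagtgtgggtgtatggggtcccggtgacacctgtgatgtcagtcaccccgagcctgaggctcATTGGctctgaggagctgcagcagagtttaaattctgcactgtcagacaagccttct
All 3 held a CCAAT match, at 46 bases before the start in Spp1, 54 in Ibsp and 57 in Dmp1. The RUNX letters stood 129 bases before the start of Spp1 and 165 bases before that of Dmp1, and were not in this window of Ibsp. Among 32851 promoters of the same length, 4.4% held the RUNX letters and 33.8% the CCAAT letters. Of the 10 genes, 7 had a promoter entry, of which 2 held the RUNX letters and 4 the CCAAT letters. Of the 3 neighbours, the highest in level, Spp1, and the lowest, Dmp1, held both kinds of match. A link of the letters to level was not tested.

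Spp1 (ENSMUSG00000029304, chr5:104435118-104441050) had 2155, 1946 and 2137 FPKM in mAC_Mito 1, 2 and 3, against 2343, 2519.8 and 2166 FPKM in mAC 1, 2 and 3. Every mAC_Mito library lay below every mAC library in FPKM, by a narrow gap between mAC_Mito 1 and mAC 3. Of the genes tested, 3.54% had groups that did not overlap in this direction. On TMM-scaled log2 CPM, the count relative to library depth, the groups overlapped. There mAC_Mito 1 was at 0.03 above the mean of the 6 libraries and mAC 3 at -0.08. The separation in FPKM thus depended on the measure used. The means were 2079 ± 116 FPKM in mAC_Mito and 2343 ± 177 FPKM in mAC (SD, n = 3 each). The log2 fold change of -0.19 (standard error 0.11, 95% interval -0.45 to 0.06) did not pass edgeR's quasi-likelihood test. Spp1 took between 0.361% and 0.479% of all counts of a library. The predicted gene Gm42793 overlaps it on the same strand (chr5:104435121-104436372) with 124 to 233 counts, too few to move these values.

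Ibsp (ENSMUSG00000029306, chr5:104299171-104311469) was far below its neighbour. It had 9.23, 8.75 and 7.35 FPKM in mAC_Mito 1, 2 and 3, against 6.56, 8.13 and 8.35 FPKM in mAC 1, 2 and 3. The groups overlapped: mAC_Mito 1 was highest, mAC 1 lowest and mAC_Mito 3 below 2 of the mAC libraries. The means were 8.45 ± 0.976 FPKM in mAC_Mito and 7.68 ± 0.978 FPKM in mAC (SD, n = 3 each), with a log2 fold change of 0.13 (standard error 0.13, 95% interval -0.17 to 0.42). It was 0.0142 without mAC_Mito 1 and 0.22 without mAC_Mito 3.

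Dmp1 (ENSMUSG00000029307, chr5:104202613-104214102) had 0, 20 and 0 counts in mAC_Mito 1, 2 and 3, against 6, 11 and 12 counts in mAC 1, 2 and 3. All Dmp1 reads of that group were thus in mAC_Mito 2, which had more of them than any mAC library. Taken as a limit of 3 counts, a count of 0 allows up to 0.0471 CPM in mAC_Mito 1 and 0.0489 CPM in mAC_Mito 3, and the exact Poisson 95% interval used for the other counts reaches 3.69 counts. Dmp1 did not pass the filter on low counts and entered no test of the main comparison. Without that filter, edgeR gave an unadjusted p of 0.779. Leaving out mAC_Mito 2 leaves 0 and 0 counts in mAC_Mito, so any difference then found is set by that removal.

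Mgp, matrix Gla protein, is a vitamin K-dependent inhibitor of calcification that chondrocytes and vascular smooth muscle secrete. Mgp (ENSMUSG00000030218, chr6:136872435-136875823, minus strand) had 715, 757 and 738 FPKM in mAC_Mito 1, 2 and 3, against 527, 697 and 806 FPKM in mAC 1, 2 and 3. The mAC_Mito libraries lay close together inside the range of mAC, in which mAC 1 was the lowest and mAC 3 the highest of all 6. The means were 737 ± 21.2 FPKM in mAC_Mito and 677 ± 140 FPKM in mAC (SD, n = 3 each), with a log2 fold change of 0.11 (standard error 0.12, 95% interval -0.16 to 0.38). Without mAC 1, the log2 fold change was -0.0007.

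Alpl and Enpp1 act on pyrophosphate in opposite directions, Alpl by removing it and Enpp1 by making it from nucleotides. Alpl (ENSMUSG00000028766, chr4:137741733-137796384, minus strand) had 5.71, 6.05 and 7.40 FPKM in mAC_Mito 1, 2 and 3, against 6.40, 6.02 and 5.64 FPKM in mAC 1, 2 and 3. The groups overlapped, with mAC_Mito 3 highest and mAC 3 lowest. The mean was 6.39 ± 0.895 FPKM in mAC_Mito and 6.02 ± 0.380 FPKM in mAC (SD, n = 3 each), and the log2 fold change was 0.06 (standard error 0.13, 95% interval -0.23 to 0.35). Leaving out mAC_Mito 3 or mAC 3 turned its sign, to -0.05 and -0.02.

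Enpp1 (ENSMUSG00000037370, chr10:24637914-24712159, minus strand) had 5.16, 5.72 and 5.20 FPKM in mAC_Mito 1, 2 and 3, against 6.74, 5.44 and 5.11 FPKM in mAC 1, 2 and 3. Only mAC 1 stood apart, above all other libraries, while mAC 3 was the lowest. The mean was 5.36 ± 0.313 FPKM in mAC_Mito and 5.76 ± 0.863 FPKM in mAC (SD, n = 3 each). The log2 fold change was -0.14 (standard error 0.14, 95% interval -0.45 to 0.18), and 0.05 without mAC 1.

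The ratio of Enpp1 to Alpl, both in FPKM, was 0.904, 0.945 and 0.703 in mAC_Mito 1, 2 and 3, against 1.05, 0.904 and 0.906 in mAC 1, 2 and 3. Transcripts of the enzymes that make and remove pyrophosphate were thus within 0.904 to 1.05 of each other in 5 of the 6 libraries, and mAC_Mito 3 had relatively more Alpl. The ratio averaged 0.850 ± 0.130 in mAC_Mito and 0.954 ± 0.0856 in mAC (SD, n = 3 each), and the groups overlapped.

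Phex, a membrane endopeptidase of osteoblasts and osteocytes whose loss causes phosphate wasting, was nearly silent. Phex (ENSMUSG00000057457, chrX:157162075-157415286, minus strand) had 40, 23 and 34 counts in mAC_Mito 1, 2 and 3, against 19, 33 and 30 counts in mAC 1, 2 and 3. The groups overlapped, and at 0.0427 to 0.0820 FPKM the gene was low in every library. Its log2 fold change of 0.28 (standard error 0.45) had an interval from -0.73 to 1.298, which leaves a wide range of differences undetectable at this depth. It was 0.12 without mAC_Mito 1 and 0.47 without mAC_Mito 2.

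Sp7, or osterix, is the zinc finger transcription factor that commits cells to the osteoblast lineage downstream of Runx2. Sp7 (ENSMUSG00000060284, chr15:102356606-102366968, minus strand) had 3.26, 3.68 and 4.34 FPKM in mAC_Mito 1, 2 and 3, against 4.05, 3.45 and 3.01 FPKM in mAC 1, 2 and 3. The groups overlapped, again with mAC_Mito 3 highest and mAC 3 lowest in FPKM. The mean was 3.76 ± 0.543 FPKM in mAC_Mito and 3.50 ± 0.522 FPKM in mAC (SD, n = 3 each), and the log2 fold change was 0.07 (standard error 0.17, 95% interval -0.30 to 0.44). Without mAC_Mito 3 it was -0.04, and without mAC 3 it was -0.06.

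Over all members together, 9 of the 10 genes passed the filter on low counts, and 0 of these 9 passed edgeR's quasi-likelihood test at an adjusted p under 0.05. Each had an adjusted p of 0.99992. Of all 17645 genes tested, 2 passed (0.0113%), the predicted genes Gm49890 and Gm49909, named here after their values were seen. That number of genes was 0 without mAC_Mito 1 or mAC_Mito 3 and 4 without mAC_Mito 2 or mAC 3. DESeq2 and limma also called 0 members. At an unadjusted p under 0.05, edgeR, DESeq2 and limma each had 1 member, Bglap2, among 563, 708 and 257 genes, and the edgeR share over all genes was 3.19%. The log2 fold change was positive for 6 members and negative for 3. Their median was 0.07 against 0.002 over all genes tested, and the median size of the change was 0.135 against 0.118. The plot of fold changes with intervals shows that the abundant members were bounded tightly and the scarce ones loosely: for Spp1, Mgp, Ibsp, Alpl, Enpp1 and Sp7 the intervals lay between -0.45 and 0.44.

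**Figure D3:**
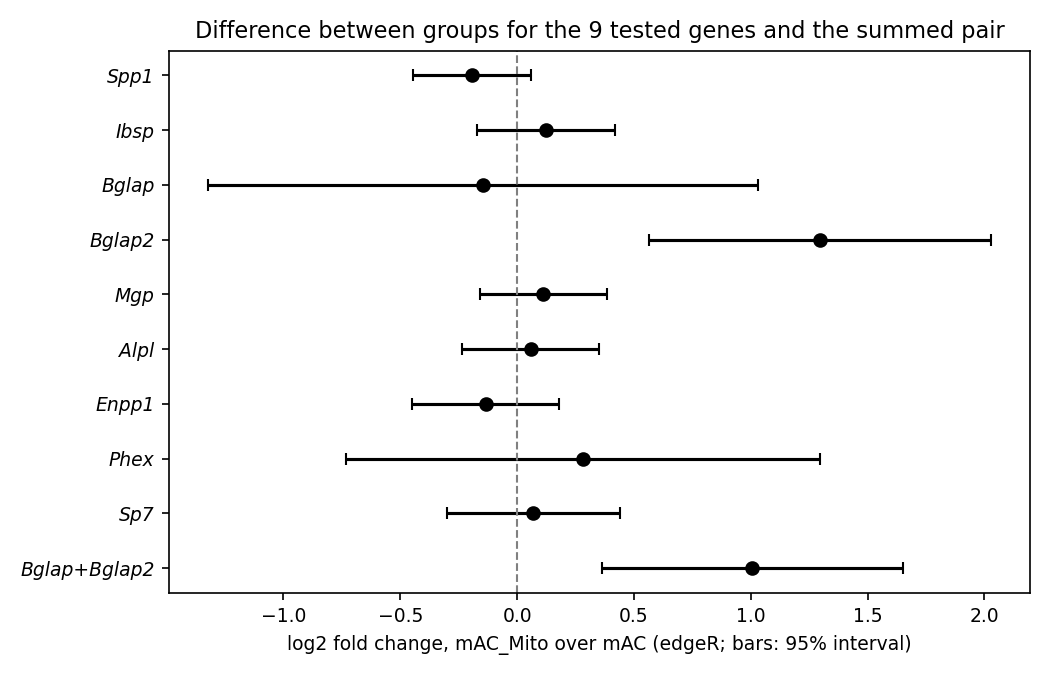
Log2 fold change of mAC_Mito over mAC (horizontal axis) for the 9 genes tested and for the sum of both osteocalcin copies; points are edgeR estimates and bars 95% intervals, and the dashed line marks no difference. The intervals of Bglap2 (0.57 to 2.03) and of the sum (0.36 to 1.65) lie above 0, the other 8 cross it.

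The members did not vary together across libraries. Sp7 and Alpl followed each other (Pearson r = 0.95 over 6 libraries of log2 CPM, given as a description over samples of both groups). This was the highest r of any pair, and that of Enpp1 with Mgp the lowest, both named after their values were seen. Other bone genes did not share the pattern of Sp7 and Alpl. With Sp7 and Alpl in turn, r was -0.63 and -0.65 for Ibsp, -0.4 and -0.51 for Bglap, and -0.01 and 0.1 for Bglap2. For Spp1 it was 0.24 and 0.25. Enpp1 and Mgp ran opposite (r = -0.96), a relation that mAC 1 carries at its extreme, with Enpp1 at 0.37 above and Mgp at -0.33 below their 6-library means on the log2 scale. The library mAC 1 was also lowest for Ibsp, Phex and Bglap2, and it had the highest share of mitochondrial genome counts, 7.38%, whose part in these values was not tested. Without mAC 1, the log2 fold change was 1.16 for Bglap2 and 0.897 for the sum. Leaving out this library does not test the part of the mitochondrial share. The copies of osteocalcin were not tied (r = -0.25 for Bglap with Bglap2). The map of deviations shows these library patterns.

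**Figure D4:**
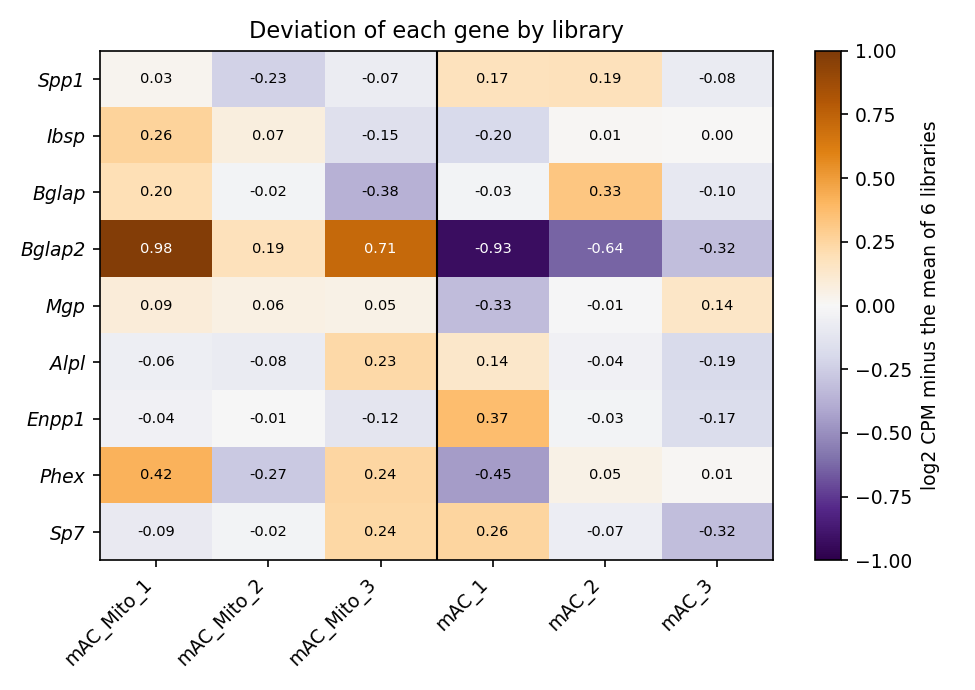
Log2 CPM of each of the 9 tested genes minus its mean over the 6 libraries (colour and printed value), for mAC_Mito 1 to 3 left of the black line and mAC 1 to 3 right of it. Bglap2 is positive in all 3 mAC_Mito libraries and negative in all 3 mAC libraries, from 0.98 in mAC_Mito 1 to -0.93 in mAC 1, and mAC 1 stands out for Enpp1 (0.37) and Mgp (-0.33).

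The genes whose pattern over the 6 libraries was most like that of a member were sought by Pearson r of log2 CPM. The search covered 6150 genes with a mean of at least 5 FPKM, leaving out symbols of Gm plus digits or ending in Rik. Mgp was followed by Uqcr11 (r = 0.995), Ech1 (0.99) and Egln2 (0.989), and 235 genes reached an r of 0.9 with it. Spp1 was followed by Pitrm1 (r = 0.991), Knstrn (0.989) and Tmem97 (0.989), with 186 genes at 0.9 or more. For Enpp1 these were Gfpt2 (r = 0.993), Erg (0.992) and Numb (0.988), with 88 genes at 0.9 or more. Alpl had fewer such genes, 35, led by Wfs1 (r = 0.979), Chst14 (0.977) and Tmem63b (0.967). Ibsp had 12, led by Eid1 (r = 0.947), Hmg20b (0.941) and Leo1 (0.936), the fewest of these 5 genes. With 6 libraries, high values of r are common across so many genes.

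Other genes of the same processes were described from lists by role. No gene of these 7 lists passed the test in either direction, by edgeR, DESeq2 or limma. Together with the markers of cell types below, edgeR tested 148 genes, of which 5 had an unadjusted p under 0.05 (8 of 160 by DESeq2 and 0 of 111 by limma). These 5 are 3.38% of the 148, against 3.19% of all genes tested.

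In pyrophosphate and phosphate handling, 16 of 19 genes were tested, 7 with a positive and 9 with a negative log2 fold change around a median of -0.03. Ank, the membrane protein that lets pyrophosphate out of the cell, was at 23.9 ± 2.87 FPKM in mAC_Mito and 21.9 ± 0.738 FPKM in mAC (SD, n = 3 each), more abundant than either Enpp1 or Alpl. Enpp2, the lysophospholipase D autotaxin, was at 28.6 ± 2.12 FPKM in mAC_Mito and 32.4 ± 1.97 FPKM in mAC, and the cytosolic pyrophosphatase Ppa1 at 26.8 ± 2.29 FPKM in mAC_Mito and 27.8 ± 3.18 FPKM in mAC. The groups did not overlap for 1 gene in each direction, both named after their values were seen. Phospho1, the phosphatase that frees phosphate inside matrix vesicles, was at 1.79 ± 0.23 FPKM in mAC_Mito and 1.39 ± 0.15 FPKM in mAC, with an unadjusted p of 0.121 by edgeR's test. Galnt3, which glycosylates and protects Fgf23, was at 2.86 ± 0.166 FPKM in mAC_Mito and 3.37 ± 0.281 FPKM in mAC, with an unadjusted p of 0.067. Over all genes tested, 3.76% did not overlap in the direction of Phospho1 and 3.54% in that of Galnt3.

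Among the other bone matrix genes, 14 of 16 were in the table and tested, 8 with a positive and 6 with a negative value around a median of 0.06. Sparc, or osteonectin, was at 1631 ± 54.7 FPKM in mAC_Mito and 1718 ± 105 FPKM in mAC (SD, n = 3 each), of the same order as Spp1. Thbs1, a matricellular glycoprotein, was at 941 ± 243 FPKM in mAC_Mito and 767 ± 61.8 FPKM in mAC, and the proteoglycan Bgn at 604 ± 55.4 FPKM in mAC_Mito and 617 ± 196 FPKM in mAC. The list's only unadjusted p under 0.05 was that of Col5a1, a fibrillar collagen chain, at 0.0497.

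The osteoblast transcription factors and upstream signals had 17 of 18 genes tested, 12 positive and 5 negative, around a median of 0.04. The most abundant were Atf4, at 166.7 ± 7.00 FPKM in mAC_Mito and 164.9 ± 18.9 FPKM in mAC (SD, n = 3 each), Cbfb, the partner of the RUNX factors, and Twist1, which restrains Runx2. Runx2 itself, named because Sp7 acts below it, was at 2.90 ± 0.674 FPKM in mAC_Mito and 2.28 ± 0.514 FPKM in mAC, and the groups overlapped.

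Osteocyte genes had 14 of 16 in the table and 12 tested, 7 positive and 5 negative, with a median of 0.06. Pdpn, an early osteocyte membrane protein, led at 42.0 ± 7.29 FPKM in mAC_Mito and 51.1 ± 8.57 FPKM in mAC (SD, n = 3 each), followed by the cadherin Cdh11 and the hyaluronan receptor Cd44, which other cells also express. The late osteocyte genes Sost, an inhibitor of Wnt signalling, and Fgf23, the phosphate hormone, were near the floor. Sost averaged 0.0074 FPKM in mAC_Mito and 0.0163 FPKM in mAC, and Fgf23 0.0157 FPKM in mAC_Mito and was listed at 0 in every mAC library.

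The vitamin K cycle carboxylates osteocalcin and Mgp. Its list, which also held other carboxylated proteins, had 7 of 8 genes tested, 5 positive and 2 negative, with a median of 0.05. Ucma, a Gla protein of cartilage, was at 423 ± 16.7 FPKM in mAC_Mito and 459 ± 107 FPKM in mAC (SD, n = 3 each). Gas6 followed it, and Vkorc1, which regenerates vitamin K, was at 150.4 ± 4.002 FPKM in mAC_Mito and 160.9 ± 3.03 FPKM in mAC. Receptors and kinases of the acidic proteins had 13 of 13 tested, 7 positive and 6 negative, with a median of 0.04, led by the integrin chains Itgb1 and Itgb5 and by Cd44. Of the hypertrophic cartilage genes, 10 of 12 were tested, 4 positive and 6 negative, with a median of -0.01. The collagenase Mmp13, which is active where cartilage calcifies, was at 47.0 ± 3.42 FPKM in mAC_Mito and 52.3 ± 2.37 FPKM in mAC (SD, n = 3 each). The receptor Fgfr3, which restrains chondrocyte growth, was at 18.6 ± 3.32 FPKM in mAC_Mito and 17.8 ± 3.40 FPKM in mAC, and the vessel growth factor Vegfa at 17.0 ± 0.574 FPKM in mAC_Mito and 18.0 ± 1.39 FPKM in mAC. The plot of pathway lists shows medians near 0 and single list genes between -0.73 and 0.65, with Bglap2 at the right edge.

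**Figure D5:**
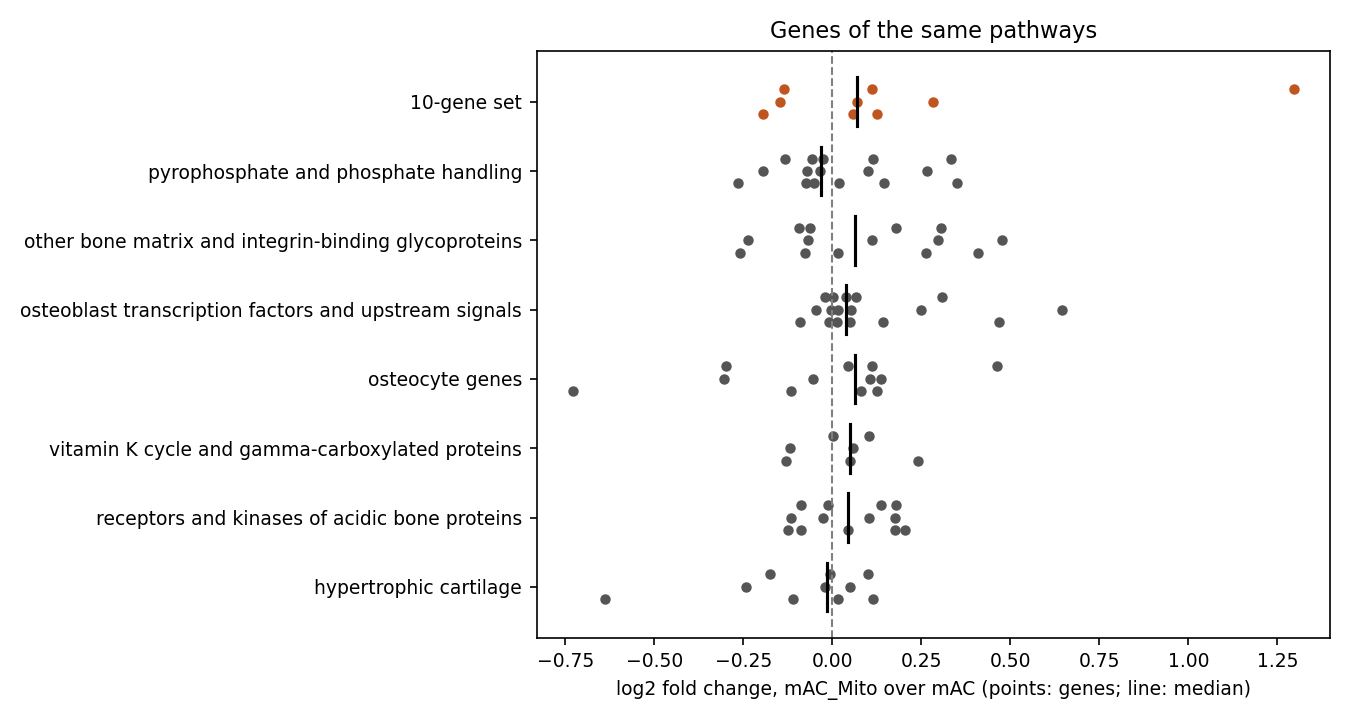
Log2 fold change of mAC_Mito over mAC (horizontal axis, edgeR) for the 9 tested members (top, orange) and the tested genes of 7 lists of the same processes (grey); each point is a gene, offset vertically only for legibility, and black lines are medians. The medians lie between -0.03 and 0.07, and Bglap2 at 1.296 is the point farthest from 0.

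Markers of other cell types were present at differing levels, and their part in the values above was not tested. Over all genes tested, 50.4% had a positive log2 fold change. For macrophages, 12 of 12 markers were tested and 9 were positive. Their summed level was 74.5 to 119.3 FPKM in mAC_Mito and 66.5 to 84.8 FPKM in mAC, mostly Lyz2 and Cd68. Osteoclast markers summed to 56.6 to 65.2 FPKM in mAC_Mito and 46.9 to 66.5 FPKM in mAC, nearly all Ctsk and Nfatc1, and 3 of 9, Calcr, Dcstamp and Ocstamp, averaged under 0.1 FPKM. Of 6 osteoclast markers tested, 4 were positive. Adipocyte markers, led by Fabp4 and Adipoq, summed to 93.0 to 113.5 FPKM in mAC_Mito and 68.02 to 108.6 FPKM in mAC, and all 8 were positive.

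Skeletal muscle markers summed to 38.0 to 43.4 FPKM in mAC_Mito and 29.0 to 42.8 FPKM in mAC, led by Acta1 and Tnnt3, and all 8 were positive. Vascular smooth muscle markers, led by Acta2 and Tagln, summed to 728 to 827 FPKM in mAC_Mito and 748 to 802 FPKM in mAC, and 5 of 7 tested were positive. Their defining markers went both ways: Myh11 averaged 0.758 ± 0.143 FPKM in mAC_Mito and 0.486 ± 0.0491 FPKM in mAC (SD, n = 3 each). Myocd, too low to test, had 0.0152, 0 and 0 FPKM in mAC_Mito 1, 2 and 3, against 0.0227, 0.0207 and 0.0242 FPKM in mAC 1, 2 and 3. Endothelial markers summed to 8.07 to 8.95 FPKM in mAC_Mito and 8.52 to 10.35 FPKM in mAC. Nearly all of that was Erg and Egfl7, while 6 of 9 averaged under 0.1 FPKM, and 5 of 8 tested were positive. The groups overlapped in the summed level of each of these lists. Besides Col5a1, the list genes with an unadjusted p under 0.05 were Myh11, Mmp9, Lpl and Itgam, a share near that over all genes. These 4 and Phospho1 were the list genes higher in every mAC_Mito library than in any mAC library, and Galnt3, Lox, Vkorc1 and Myocd were those lower in every one. Among all genes tested, which do not include Myocd, 3.76% were higher in this way and 3.54% lower.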

How the data were processed

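The authors deposited 1 table of genes with a column headed count for each library, and beside it an FPKM value that the authors computed and deposited. The headers do not say whether the counts are raw reads. Bowtie 0.12.2, StringTie 1.3.0, HISAT2 2.0 and build mm8 are listed, without roles, per the submitters' processing notes. The table's coordinates are GRCm38's: of 26902 identifiers shared with the GENCODE M21 annotation, 24110 had the same chromosome, start and end, 8 of the 10 members among them. How reads were counted, whether strand was used and where reads matching several genes went is not given in the sources used here.

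The counts were tested with edgeR 4.0.16 in R 4.3.3 (quasi-likelihood test, two-sided, TMM scaling, filterByExpr with a minimum count of 10 and a minimum total of 15). Benjamini-Hochberg adjustment ran over all 17645 genes that passed the filter, and an adjusted p under 0.05 counted as a call. The sum of both osteocalcin copies replaced them in a second fit of the whole table. FPKM was used for levels. Alternatives were DESeq2 1.42.0, limma 3.58.1 with a mean-variance trend on log2(FPKM + 1) and log2(FPKM + 0.1) for genes of at least 1 FPKM in at least 3 libraries, other scalings and filters, a replicate block and each library left out. Log2 CPM used a prior count of 2. Libraries differed by more than sampling noise, with a chi-square per degree of freedom of at least 23.6 between any of them. By this measure they did not sort by group. The smallest value was between mAC_Mito 1 and mAC 2, while mAC_Mito 1 was at 131.45 from mAC_Mito 2 and 81.76 from mAC_Mito 3. The next smallest, 25.21, was between mAC_Mito 2 and mAC_Mito 3.

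The members and the lists were chosen with earlier results of these data known. Named besides the members are the 3 most abundant genes of each pathway list and any that passed the test, the 2 most abundant of each marker list, and the 3 genes most like each member of at least 5 FPKM. Runx2, Phospho1, Galnt3, Lox, Myocd, Sost, Fgf23, Col5a1, Myh11, Mmp9, Lpl, Itgam, Calcr, Dcstamp and Ocstamp were named after their values were seen. So were Tyrobp, Adgre1, Csf1r and Ptprc. Promoters are RefSeq's (GRCm38.p6). Depth was 59116068 to 68378213 counts per library, at which about 1 FPKM of Bglap2, a short gene, was 34 counts in mAC 1. Expression of Dspp, Mepe, Dkk1 and Bglap3 was not analysed here.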

Additional observations from a re-analysis of the deposited data

How the results depend on the processing

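Under all 16 alternatives, 0 members passed an adjusted p under 0.05. The number of genes called over the whole table was 5 by DESeq2, 0 with no filter on low counts, 0 at a mean FPKM of at least 5, and 0 to 4 with a library left out (0 without mAC_Mito 1 or mAC_Mito 3, 4 without mAC_Mito 2 or mAC 3), against 2 in the comparison reported. Of 136 log2 fold changes of the 9 members under alternatives, 128 kept their sign, and the 8 that turned came from leaving out a library. These were Alpl (-0.0495 without mAC_Mito 3, -0.0181 without mAC 3; range -0.0495 to 0.1551), Sp7 (-0.0362 and -0.0591 without the same libraries; -0.0591 to 0.2402), Bglap (0.0072 without mAC_Mito 3, 0.004 without mAC 2; -0.3086 to 0.0072), Enpp1 (0.0477 without mAC 1; -0.2464 to 0.0477) and Mgp (-0.0007 without mAC 1; -0.0007 to 0.2187). The cause was not tested. Bglap2 stayed positive in 15 of 15 alternatives that tested it, between 1.10 and 1.49 with a library left out and between 0.88 and 1.3004 otherwise, with unadjusted p from 0.000822 to 0.0155 and a lowest adjusted p of 0.631 (edgeR, DESeq2 and limma). The sum of both copies lay between 0.81 and 1.17 with a library left out and between 0.77 and 1.04 otherwise. It was below a mean FPKM of 5 and was not tested there. Spp1 reached an unadjusted p of 0.0293 without mAC 3. The Enpp1 to Alpl ratio was also taken on counts, which only rescales it and tests nothing.

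The labels do not say whether same-numbered libraries were paired. Deviations of same-numbered libraries from their group means had correlations of 0.124, -0.06 and -0.012. Those of differently numbered libraries ran from -0.14 to 0.154. Such correlations over 3 libraries per group cannot settle whether cultures or batches were shared. With a replicate block, Bglap2 was at 1.28 and the sum at 0.98, 2 genes were called over the whole table and 0 members. Depth limits Bglap, Phex and Dmp1, whose counts were 40 or fewer in every library.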
